A study of Rattus norvegicus with 12 samples.

Results

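The set described here holds 90 genes of the 23978 in the deposited table. They were chosen by their levels in cells given siRNA 1928, which were higher than in control cells, while their mean levels with siRNA 1423 lay close to those of control cells. The data are bulk RNA sequencing of polyA-selected RNA from OC1 cells, which the labels call sensory epithelial cells of the cochlea and assign to rat. Whether it is the mouse line HEI-OC1 is not settled by the sources used here. The 12 libraries cover 3 conditions with 4 of each. The cells carried a negative control siRNA (labelled WT), siRNA 1423 or siRNA 1928, both of the latter against Bcl-2 and labelled as knockdown. All cells were transfected with a lipid reagent, so the control group shared that treatment. The labels name a plasmid in one field and siRNA in the others. Each title starts with a letter from A to D, used here as the replicate name, and nothing says that replicates were separate cultures, so p-values measure only the spread between these libraries, which may be technical.

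Bcl-2 is a membrane protein of mitochondria and the endoplasmic reticulum that holds back apoptosis by binding the pore-forming members of its own family. An siRNA is a short duplex RNA, of which 1 strand is loaded into an Argonaute protein and pairs with complementary mRNA, which is then cleaved or destabilised. The guide strand can also pair in part with other mRNAs, mainly through its seed. Using siRNAs of different sequence against the same mRNA asks which changes accompany the shared target and which accompany a single sequence. The series addresses lipid metabolism and synaptic dysfunction in age-related hearing loss, as its title says.

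The deposited table lists genes by Ensembl ID and does not pair the IDs with symbols. Of its 23978 IDs, 0 were found in the RefSeq gene table of assembly GRCr8 that was used as reference, so the genes are described by level and rank, only the 2 with the highest ratio are given by ID, and no promoter or protein sequence is shown. The level of Bcl2 and of markers of cochlear or other cells was likewise not analysed here, and the sample labels were not checked against them.

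Library totals ran from 15671546 to 23247593 expected counts, and the lowest total was that of siRNA 1928 replicate B. CPM here is a gene's count divided by the sum of its library's counts, times 1000000. In bulk libraries more transcript per cell and more cells that make it cannot be told apart.

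The genes were chosen on the ratio of mean CPM with siRNA 1928 to that of the controls, called B on the log2 scale, and the same ratio with siRNA 1423, called A. A gene had to average at least 10 CPM over the 12 libraries, have B of at least 0.5 and A between -0.15 and 0.15, and have every siRNA 1928 library above every control library. These values describe the set and test nothing, and both ratios share the same control libraries. Of the 23978 genes, 9567 averaged 10 CPM or more, 198 of those had B of 0.5 or more, and 195 of these had no overlap with the controls. Without the limits on A and B, 29.6% of the 9567 genes had every siRNA 1928 library above every control. The 195 divided into the 90 genes of the set, another 90 with A above 0.15 and 15 with A below -0.15. No gene that met the limits on abundance, A and B was left out for overlapping libraries.

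The limits cut through a continuous range. The genes nearest to the limit on B had values of 0.5003, 0.5061 and 0.5097 inside it and 0.4997, 0.4996 and 0.4993 outside it. At the limit on abundance, the nearest genes inside averaged 10.04, 10.75 and 10.81 CPM and those outside 9.23, 9.07 and 8.62 CPM. The largest A inside was 0.145 and the smallest outside 0.151, and at the lower limit the values were -0.133 and -0.168. A further 86 genes from 1 CPM to under 10 CPM met every other condition. They were 3.60% of the 2386 genes in that range, against 0.941% for the 90 among the 9567 more abundant genes. Relative counting error is larger at lower counts, and the shares were not tested, so nothing is read from their difference.

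**Figure D1:**
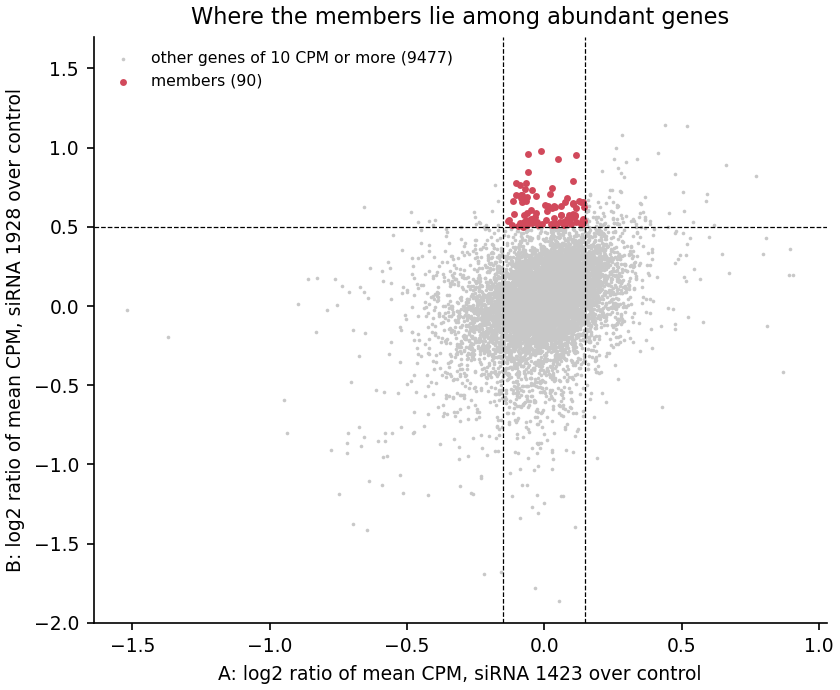
Each point is a gene with a mean of 10 CPM or more. The x axis is A, the log2 ratio of mean CPM with siRNA 1423 to control, and the y axis is B, the same ratio for siRNA 1928. Dashed lines are the limits of the rule, and the 90 genes (red) form the upper edge of the central cloud, with B from 0.50 to 0.98.

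The higher level, which the rule required of every siRNA 1928 library, was of similar size in the 4 of them. Relative to each gene's own control mean, the median of the 90 genes was 0.61 in replicate A, 0.60 in B, 0.59 in C and 0.58 in D on the log2 scale, and all 90 genes were above their control mean in each of these 4 libraries. The corresponding medians in the siRNA 1423 libraries were 0.006, 0.010, 0.026 and -0.001, with 44 to 52 of the 90 genes above the control mean. In the control libraries themselves the medians lay between -0.007 and 0.004. The limits on A and B fix medians near 0 with siRNA 1423 and above 0.5 with siRNA 1928, so these values describe how evenly the libraries share the chosen difference. Setting each siRNA 1928 library against the control library of the same letter gave medians of 0.63, 0.59, 0.58 and 0.59 for A to D, and the smallest single ratio was 0.18.

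**Figure D2:**
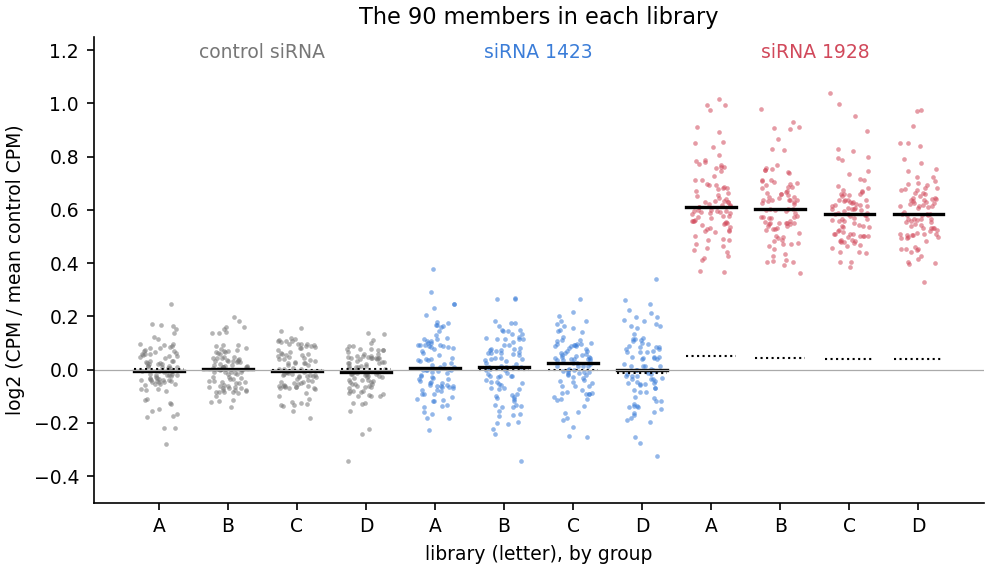
Each point is 1 of the 90 genes in 1 library, as the log2 ratio of its CPM to the gene's mean control CPM. Solid bars are the medians of the 90 genes and dotted bars the medians of all 9567 genes of 10 CPM or more. The siRNA 1928 medians are 0.58 to 0.61, and the other 8 libraries lie between -0.007 and 0.026.

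The dotted medians of all abundant genes were themselves raised in the siRNA 1928 libraries, at 0.039 to 0.050, and were between -0.011 and 0.002 in the other 8. Part of B is therefore common to most abundant genes when levels are taken relative to the column sum. The trimmed mean of M values (TMM), a scaling that sets the bulk of genes to no change, gave factors averaging 1.03 with siRNA 1928, 0.988 in the controls and 0.984 with siRNA 1423. With CPM scaled by TMM, 50 genes met the rule, all of them among the 90. With the size factors of DESeq2, 49 did.

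Together the 90 genes took 4930 to 5114 CPM in the control libraries, 4972 to 5035 CPM with siRNA 1423 and 8252 to 8463 CPM with siRNA 1928. The siRNA 1928 libraries were 1.67-fold the controls in this sum. Their share of all counts was 0.501 ± 0.00765% in the controls, 0.5001 ± 0.00267% under siRNA 1423 and 0.837 ± 0.0106% under siRNA 1928 (SD, n = 4 each). The sum was dominated by a few genes: the 5 most abundant held 54.4% of it in the controls. A single gene, ENSRNOG00000017206, supplied 47.5% of the difference between siRNA 1928 and control. The other 89 genes together stood at 3369 ± 17.6 CPM in the controls and 5132 ± 63.9 CPM with siRNA 1928, a ratio of 1.52.

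ENSRNOG00000017206 had both the highest B and the highest abundance of the set. Its levels were 1601, 1567, 1755 and 1635 CPM in control libraries A to D. With siRNA 1423 they were 1602, 1588, 1666 and 1654 CPM. With siRNA 1928 they were 3227, 3125, 3367 and 3219 CPM. All 4 siRNA 1423 libraries fell inside the range of the controls, and the lowest siRNA 1928 library was 1.78 times the highest control. The gene rested on 26985 to 76528 expected counts per library, so counting error was small beside the spread between libraries. Its mean ratio was 1.97-fold, which in the TMM-scaled fit corresponded to a log2 fold change of 0.92 (SE 0.0336) with siRNA 1928 and -0.01 (SE 0.0335) with siRNA 1423.

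ENSRNOG00000058586, with the next highest B, was of middling abundance, the 45th of the 90. Its control libraries A to D stood at 20.7, 20.3, 20.2 and 18.1 CPM. The siRNA 1423 libraries stood at 21.2, 17.7, 18.6 and 18.7 CPM, with replicate A just above the highest control and replicate B just below the lowest. The siRNA 1928 libraries stood at 40.1, 37.1, 38.4 and 38.96 CPM, apart from all the others. The mean ratio was 1.95-fold, and the fitted log2 fold changes were 0.90 (SE 0.0579) with siRNA 1928 and -0.06 (SE 0.0630) with siRNA 1423, from 300 to 873 expected counts per library.

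**Figure D3:**
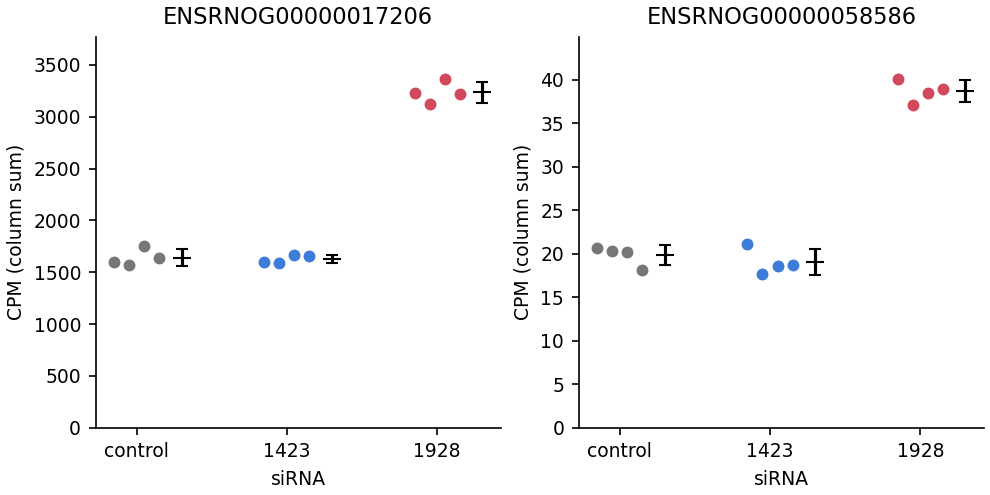
CPM of ENSRNOG00000017206 (left) and ENSRNOG00000058586 (right) in every library, with the group mean and SD (n = 4) beside the points, on axes that start at 0. The siRNA 1928 libraries lie at 3125 to 3367 and 37.1 to 40.1 CPM, and the control and siRNA 1423 libraries overlap.

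Ratios in the set were moderate. None of the 90 genes reached 2-fold, the median ratio was 1.49-fold, and 41 reached 1.5-fold. Only 4 had B of 0.9 or more: the genes named above and others with control means of 23.6 ± 1.84 and 11.7 ± 0.9004 CPM that stood at 45.8 ± 1.52 and 22.4 ± 1.06 CPM with siRNA 1928 (SD, n = 4 each). A total of 52 genes had B under 0.6. Across the 90 genes, which are not independent replicates, B was almost unrelated to abundance, with a Spearman rho of -0.08 (n = 90 genes from the same 12 libraries).

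The rule set the sign of the gap between siRNA 1928 and control libraries, and its limit on B set much of the size. The lowest siRNA 1928 library exceeded the highest control by a factor of 1.13 to 1.79 over the 90 genes, with a median of 1.35. Separation from siRNA 1423 was not part of the rule, but was nearly fixed by it through the limits on A and B. In all 90 genes every siRNA 1928 library was above every siRNA 1423 library, against 30.4% of the genes of 10 CPM or more. The narrowest of these gaps was a factor of 1.02, in a gene averaging 14.1 CPM, and the median was 1.33.

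Besides ENSRNOG00000017206, 4 genes of the set averaged more than 100 CPM. The next after ENSRNOG00000017206 had a control mean of 470 ± 13.4 CPM, which was 459 ± 5.46 CPM under siRNA 1423 and 760 ± 15.4 CPM under siRNA 1928 (SD, n = 4). Its siRNA 1928 libraries ran from 747 to 782 CPM, and no other library passed 489 CPM. The third in abundance stood at 372 ± 5.65, 360 ± 8.05 and 545 ± 10.5 CPM in the same order. The fourth was more variable, at 151 ± 11.9, 162 ± 6.02 and 217 ± 20.03 CPM, and the fifth stood at 91.4 ± 4.30, 87.5 ± 5.24 and 137 ± 4.54 CPM. In the fourth, 2 of the siRNA 1928 libraries, A and B, stood at 238 and 229 CPM and the others, C and D, at 200 and 199 CPM, all above the highest control at 162 CPM.

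Most of the set was made up of less abundant transcripts, within the floor that the rule imposed. The median over the 90 genes was 25.5 CPM, against 49.8 CPM over all 9567 genes of 10 CPM or more. Genes under 50 CPM made up 73 of the 90 (81.1%), against 50.1% of the 9567. Only 5 of the 90 (5.56%) averaged 100 CPM or more, against 25.4%. The floor was the only limit that the rule put on abundance, but relative counting error is larger at lower counts. The shares are given as descriptions with no test, so nothing is read from their difference. The floor used the mean of all 12 libraries, so some genes of the set reached 10 CPM only through the siRNA 1928 libraries. The gene nearest the floor averaged 8.29 CPM in the controls, 8.91 CPM with siRNA 1423 and 12.9 CPM with siRNA 1928. The smallest count of any of the 90 genes in any library was 125 expected counts.

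**Figure D4:**
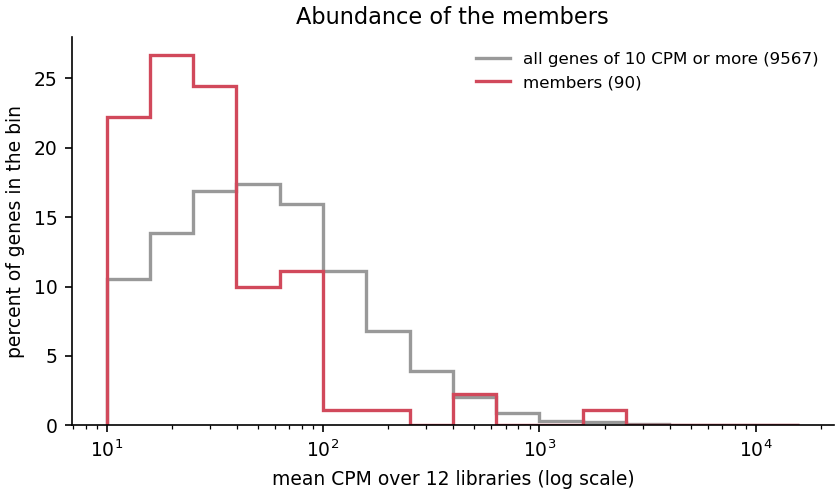
Percent of genes in each bin of mean CPM over the 12 libraries, on a log scale, for the 90 genes (red) and all 9567 genes of 10 CPM or more (grey). The 90 genes gather between 10 and 40 CPM, with a median of 25.5 CPM against 49.8 CPM, and 5 lie at 100 CPM or more.

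With siRNA 1423 the 90 genes lay on both sides of the control level. A was above 0 in 50 genes and below 0 in 40, with a median of 0.02, and 26 genes were beyond 0.1 in either direction. With TMM scaling the fitted value was above 0 in 51 and below in 39, with a median of 0.03 against -0.001 over all 12731 tested genes. In 88 genes the siRNA 1423 and control libraries overlapped. In the other 2 (2.22%) they did not, against 28.1% of the 9567 abundant genes with no overlap in either direction. The limit on A keeps such genes few in the set, so nothing is read from this difference. All 4 siRNA 1423 libraries fell inside the range of the 4 control libraries in 13 genes, 3 of them did so in 18, 2 in 33, 1 in 22 and none in 4.

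In edgeR's quasi-likelihood test with Benjamini-Hochberg adjustment over all 12731 tested genes, 2 of the 90 were called changed with siRNA 1423 and both were higher. Calls in either direction made up 22.8% of all tested genes and 27.9% of those of 10 CPM or more, and the limit on A keeps the number low in the set, so nothing is read from it. The first of these genes had a control mean of 82.8 ± 2.30 CPM, against 90.7 ± 2.43 CPM under siRNA 1423 and 118 ± 2.44 CPM under siRNA 1928 (SD, n = 4). The second stood at 54.2 ± 2.28, 59.5 ± 3.75 and 78.4 ± 3.18 CPM. Their fitted log2 fold changes with siRNA 1423 were both 0.14 (SE 0.0333 and 0.0473). In both genes the groups stood in the order control, siRNA 1423, siRNA 1928 with no overlap between neighbours. The number called was 1 without control replicate B or without control replicate D. It was 4 without siRNA 1423 replicate C, with 3 higher and 1 lower. Without control replicate A, 1 was higher and 1 lower, and from replicates C and D alone 2 were higher and 1 lower. Under the other alternatives run, none was called lower.

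A level close to control with siRNA 1423 was measured only to a limited precision. The median SE of the fitted siRNA 1423 value was 0.062, beside a permitted band from -0.15 to 0.15. The 95% interval of the siRNA 1423 value included 0 in 79 genes, but it stayed within -0.15 to 0.15 in only 14 and reached past one of these limits in 76. For most of the set a change with siRNA 1423 somewhat beyond the band, in one direction or the other, was thus not distinguishable from none.

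For siRNA 1928 all 90 genes passed the edgeR test as higher, as did 21.8% of all tested genes and 23.7% of those of 10 CPM or more. The rule used this contrast, so nothing is read from that count. Fitted log2 fold changes ran from 0.45 to 0.92 with a median of 0.52, against a median of 0.003 over all tested genes, and the SE ran from 0.026 to 0.096. In 52 of the 90 genes the fitted value was 0.5 or more. The 95% interval lay wholly above 0.5 in 18 genes and reached below it in 72. The direct difference between the siRNAs, which the limits on A and B fix in sign, was called higher with siRNA 1928 in all 90, against 21.3% of all tested genes, and ran from 0.31 to 0.96 with a median of 0.52.

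**Figure D5:**
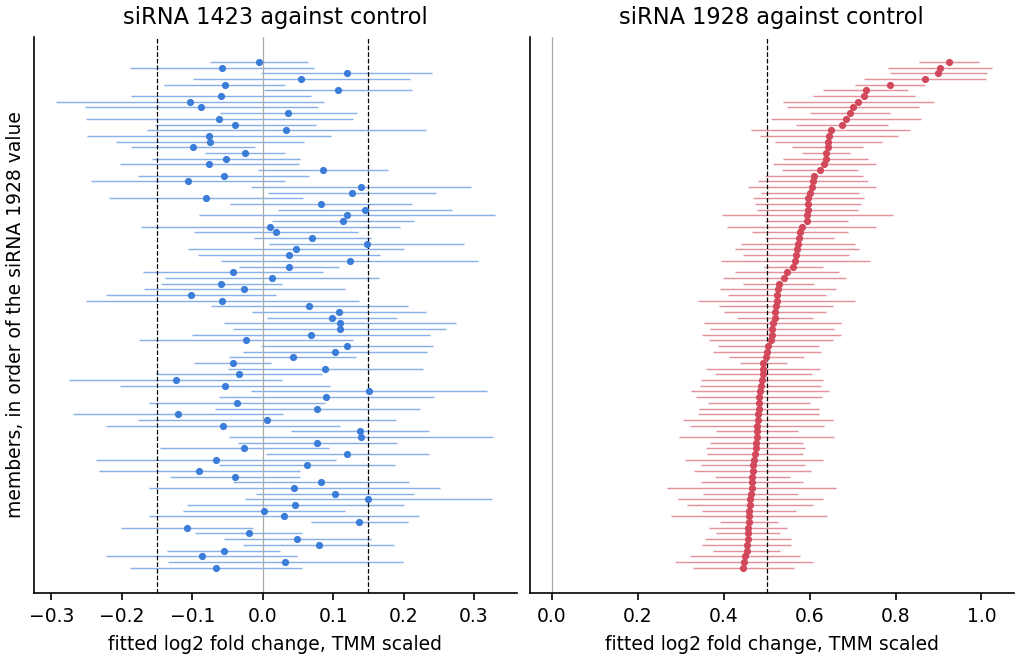
Fitted log2 fold changes of the 90 genes against control after TMM scaling, with 95% intervals, for siRNA 1423 (left) and siRNA 1928 (right), in the order of the siRNA 1928 value. Dashed lines mark -0.15 and 0.15 on the left and 0.5 on the right; 14 intervals on the left stay within the band and 18 on the right lie above 0.5.

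Variation among replicates is given as a description, since the rule used the control and siRNA 1928 libraries one by one and the means of all 3 groups. The median coefficient of variation over 4 libraries was 5.16% in the controls, 5.49% with siRNA 1423 and 4.57% with siRNA 1928, against 4.44%, 4.25% and 4.17% for all genes of 10 CPM or more, which are more abundant. After the group means were removed, pairs of the 90 genes had a median Pearson r of -0.0008 over the 12 libraries (10th and 90th percentiles -0.45 and 0.46, 4005 pairs). All pairs of the 9567 abundant genes had a median of -0.0004 (-0.49 and 0.50). The medians of both kinds of pair were near 0.

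An earlier analysis of these data had seen replicates A and B stand apart from C and D, a division that is balanced over the groups and does not enter the rule. A model with this division added to the group gave calls by edgeR's quasi-likelihood test for 4 of the 90 genes (4.44%) and 8.76% of all tested genes. Because the division was first seen in these same data, the calls and adjusted p-values describe it and do not test whether it exists. ENSRNOG00000017206 was higher in C and D by 0.08 (SE 0.0181, adjusted p = 0.00527). The fourth most abundant gene was lower there by a log2 value of -0.15 (SE 0.0263, adjusted p = 0.000285). A gene averaging 27.3 CPM was also lower in C and D, with a value of -0.19 (SE 0.0465, adjusted p = 0.00732). The last, averaging 20.6 CPM, had a value of -0.17 (SE 0.0506, adjusted p = 0.0312). The largest of these differences was under the smallest fitted siRNA 1928 value in the set. The limit on B kept that fitted value high, so nothing is read from this comparison. Repeating the choice of genes on A and B alone gave 101 genes, of which 61 were among the 90, and on C and D alone gave 100, of which 66 were.

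Membership near the limits changed with single libraries. Leaving out each of the 12 libraries in turn gave 85 to 108 genes, holding 74 to 86 of the 90. A core of 49 genes met the rule whichever library was left out, and 41 failed it without at least 1 library. The fewest of the 90, 74, were kept without control replicate C.

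Expected counts that are not whole can arise where a counting program divides reads between genes or transcripts. In the set 71 of 90 genes (78.9%) had a value more than 0.05 from a whole number in at least 1 library. Among the 9567 abundant genes 8613 (90%) did. Reads shared with near-identical copies are thus possible for most of the set, as for most abundant genes. How they were divided is not given in the sources used here.

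The opposite pattern was more frequent. With the signs turned, 190 abundant genes were lower with siRNA 1928 (B of -0.5 or less, no overlap with the controls) with A within 0.15 of 0, and with TMM scaling 240 were, against 90 and 50 in the higher direction. The genes of lower level were also more abundant, with a median of 49.1 CPM and 55 of 190 (28.9%) at 100 CPM or more, and 18 of them (9.47%) were lower by 2-fold or more, while none of the 90 was higher by as much. The 90 genes with A above 0.15, which were higher with siRNA 1928 and on average also with siRNA 1423, resembled the set in abundance and size, with a median of 28.2 CPM and a median B of 0.59 against 0.57. Their median A was 0.26, and 3 of them reached 2-fold with siRNA 1928. These sets were chosen by the same values, so their differences are descriptions with no test.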

How the data were processed

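Polyadenylated RNA of 12 OC1 libraries was sequenced from strand-marked libraries, per the labels' protocols. The authors deposited 1 table of estimated (expected) counts per gene, a unit read from the values, 71.3% of which are whole within 1e-06. Per the submitters' processing notes, tools included fastp 0.21.0, bcl2fastq 2.20 and DESeq2 1.24.0, with build mRatBN7.2. Which aligner and counting program made the table is not given in the sources used here.

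The genes were chosen on CPM from column sums. For tests, the authors' expected counts were rounded, genes were kept by filterByExpr, which left 12731 (all 90 among them), scaled by TMM and fitted with edgeR 4.0.16 (R 4.3.3, limma 3.58.1), with 1 mean per group over all 12 libraries. Benjamini-Hochberg adjustment covered every tested gene, and a gene is called at an adjusted p under 0.05. Standard errors were derived from the F statistic. The fit was tested on simulated data. Alternatives included DESeq2 1.42.0, limma voom, other scalings and filters, a replicate block, and leaving out each library. Figures were drawn with matplotlib 3.10.9.

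The members, the lists and the rule for naming genes were chosen with earlier results of these data known. That rule called for symbols; without them it allows the 2 IDs with the highest B. Genes singled out by rank or by a call were chosen after their values were seen, and the lists of genes by function and cell type could not be assigned. Intervals and SE cover only the spread between these libraries. The number of columns without a sample was 0.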

Additional observations from a re-analysis of the deposited data

Results flagged for a closer look

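Control replicate A stood apart from the other control libraries in the summed level of the 89 genes other than ENSRNOG00000017206, at 3396 CPM against 3358 to 3363 CPM. The gap was small beside the difference from the siRNA 1928 libraries, which ran from 5080 to 5223 CPM. It was the only value that stood apart among 33 groups of 4 values searched, of which chance picks out about 1 in 20.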

How the results depend on the processing

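The number of genes that met the rule depended on the scaling, at 90 with column sums, 50 with TMM and 49 with DESeq2 size factors; with other floors, bands, letters or single libraries left out it stayed within 1.5 times of 90, from 62 to 115. The median log2 fold change of the 90 genes with siRNA 1928 was 0.52, and it moved by more than the spread between libraries to 0.58 where scaling used the library totals and no TMM, to 0.55 from replicates A and B and to 0.54 from C and D, and ran from 0.52 to 0.53 when single libraries were left out. The median with siRNA 1423 was 0.03, moved to 0.0159 with A and B alone, and ran from -0.000715 to 0.0319 when single libraries were left out. Genes of the set called with siRNA 1423 numbered 1 to 4 when single libraries were left out, and those called between A and B and C and D numbered 3 to 6. All 90 were called higher with siRNA 1928 against control under every alternative run, and 89 or 90 against siRNA 1423. The main fit called 21.8% and 21.3% of all tested genes higher in these contrasts. For siRNA 1928 against control, calls in either direction over all tested genes ran from 4446 (A and B alone) to 6174 (replicate block). The rule fixed the direction of both contrasts for the set, so nothing is read from its counts. The fold changes of ENSRNOG00000017206 (0.90 to 0.98) and ENSRNOG00000058586 (0.86 to 0.96), which were picked for the highest B, also stayed past the threshold throughout. The labels do not say what a letter marks, so the main fit did not take the letters as pairs. Deviations of same-letter libraries correlated at -0.0184 to 0.271 over abundant genes, with 9 of 12 over 0.1. Those of libraries with different letters correlated at -0.365 to 0.370, and the best match was the own letter in 10 of 24 cases. Whether libraries of a letter share an effect was not tested. With the letter as a replicate block, 90 genes of the set were called with siRNA 1928 and 3 with siRNA 1423, and calls over all tested genes went from 5752 to 6174 and from 2903 to 3365.

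At this depth and spread, the interval of the fitted siRNA 1423 value reached past the band in 76 of the 90 genes. The scaling decides membership near the limit on B. Without symbols no gene function, target sequence or seed match was examined.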
